A study of Mus musculus with 9 samples.

Results

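The major histocompatibility complex (MHC) class I genes of the mouse lie in clusters on chromosome 17 and were followed here through 10 of them: H2-K1, H2-D1, H2-Q4, H2-Q6, H2-Q7, H2-T22, H2-T23, H2-T24 and the predicted genes Gm11127 and Gm10499. They were chosen by name, with their values in these libraries known, and make up 10 of the 46958 genes of the deposited count table and 10 of its 34 listed class I genes. Because their own values chose them, those values are given as a description with no test. RNA was sequenced from the CD138-positive cells of the spleen, a fraction rich in antibody-secreting plasma cells, with a stated purity above 80%. There were 3 genotypes with 3 mice each, 1 library per mouse: DH-LMP2A, kFRA and WT. All the mice were 3 months old, had not been immunized and had a mixed background of C57/BL6, 129/SV and BALB/c. The study concerns a free light chain from light chain deposition disease, which the kFRA mice carry. As background, LMP2A is a signalling protein of Epstein-Barr virus that can support B cells lacking a B cell receptor. The labels give neither the alleles nor the promoter or cells that drive them, and do not say whether kFRA mice also carry DH-LMP2A.

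Class I heavy chains pair with the light chain beta-2 microglobulin and carry peptides from inside the cell to its surface, where CD8 T cells read them. The classical genes H2-K1 and H2-D1 are expressed by most cells, whereas the Q and T genes encode non-classical molecules with narrower ligands and receptors. Inbred strains carry different sets of these genes and alleles, called H2 haplotypes. C57BL/6 mice carry haplotype b and BALB/c mice haplotype d, and the number of Q and T genes differs between haplotypes. The mouse reference genome comes from C57BL/6, so reads from any other haplotype are counted against C57BL/6 copies. The labels do not give the haplotype of any mouse. Whether a value follows the genotype or the strain from which that mouse's chromosome 17 came therefore cannot be told apart.

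The class I genes share sequence, which bears on every count below, so the sequences that matter for it are shown first. The following coding stretch was found in 6 of the 10 members and in 9 genes in all, and is as long as a sequencing read, 75 bases. Every base of this stretch is shared. In later sequences capitals mark searched motifs, which were not searched for here.
Shared by H2-D1 (bases 721 to 795 of its reading frame), H2-Q6, H2-Q7, H2-T22, H2-T23 and Gm11127: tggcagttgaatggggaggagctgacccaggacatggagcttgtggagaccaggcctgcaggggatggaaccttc
Of all 75-base windows of a gene's GENCODE M21 transcripts, the share also found in another gene was 3.1% for H2-K1, 5.4% for H2-D1, 7.02% for H2-Q4, 5.91% for H2-T23, 5.35% for Gm10499 and 0.459% for H2-T24. It was 17.9% for H2-Q6, 17% for H2-Q7 and 18.5% for H2-T22, which shared 15.7% of its windows with H2-T10. Gm11127 shared 53% of its windows, 33.1% with Gm7030. Among the members with a reading frame, H2-Q6 and H2-Q7 were the most alike pair, with 93.3% identical bases. H2-K1 and H2-D1 came next with 89.5%. Genes that are not members were not compared in this way. How reads that map to several places were counted is not given in the sources used here, so counts of Gm11127, H2-T22, H2-Q6 and H2-Q7 are uncertain in that respect. Strand use in counting is not given either, and exons of H2-Q4, H2-T22, Gm11127 and Gm10499 overlap exons of Gm11131, A930015D03Rik, Gm6034 and 2410017I17Rik, respectively, on the opposite strand.

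The members also fell into kinds by their promoters, taken from RefSeq (GRCm38.p6) as the 200 bases before the transcription start. A promoter was matched for 9 of the 10 members, with none for H2-T24. Those of H2-K1, H2-Q6, H2-Q7, Gm11127 and Gm10499 are shown, with the searched motifs in capitals on either strand. The motifs were the NF-kappaB site known from H2-K1 (GGGGA followed by TTCCCC), its looser form, which overlaps it (GGGGA, any base, T, any base, CC), TTTCACTT (the core of the interferon response element), CCAAT and TATAAA.
H2-K1, chr17:34000334-34000533, minus strand: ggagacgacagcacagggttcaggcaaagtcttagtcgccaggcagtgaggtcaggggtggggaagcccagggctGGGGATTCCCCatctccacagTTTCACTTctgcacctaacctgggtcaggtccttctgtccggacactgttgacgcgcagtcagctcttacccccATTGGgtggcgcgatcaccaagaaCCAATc
H2-Q6, chr17:35424650-35424849, plus strand: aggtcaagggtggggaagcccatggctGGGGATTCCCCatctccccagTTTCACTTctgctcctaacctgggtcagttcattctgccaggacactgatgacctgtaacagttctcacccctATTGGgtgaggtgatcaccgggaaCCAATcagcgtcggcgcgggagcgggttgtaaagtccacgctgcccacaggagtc
H2-Q7, chr17:35438955-35439154, plus strand: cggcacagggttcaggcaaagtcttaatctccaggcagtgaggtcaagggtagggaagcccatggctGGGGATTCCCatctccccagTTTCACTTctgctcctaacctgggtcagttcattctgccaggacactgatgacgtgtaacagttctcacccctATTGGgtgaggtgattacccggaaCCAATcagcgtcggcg
Gm11127, chr17:36058372-36058571, minus strand: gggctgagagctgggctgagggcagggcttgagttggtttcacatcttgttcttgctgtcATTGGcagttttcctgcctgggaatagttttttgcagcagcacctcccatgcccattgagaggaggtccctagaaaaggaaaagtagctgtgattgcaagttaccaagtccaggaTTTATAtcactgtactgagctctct
Gm10499, chr17:36145950-36146149, minus strand: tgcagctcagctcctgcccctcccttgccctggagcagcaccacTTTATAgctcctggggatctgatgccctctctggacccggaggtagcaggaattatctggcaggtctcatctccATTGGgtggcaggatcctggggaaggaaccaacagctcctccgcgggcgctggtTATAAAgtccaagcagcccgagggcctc
The exact NF-kappaB site stood in 3 of 9 member promoters (H2-K1, H2-D1 and H2-Q6) and in 0.0274% of all 32817 RefSeq promoters of that length. This site was taken from H2-K1, so the match there was set in advance. The 0.0274% stands for 9 promoters, those members included, and nothing is read from the contrast. The looser form of the site was found in 5 of 9, adding H2-Q4 and H2-Q7, against 0.862% of all promoters. TTTCACTT was found in the promoters of H2-K1, H2-D1, H2-Q4, H2-Q6, H2-Q7 and H2-T22, 6 of 9, against 1.03% of all. The promoters of Gm11127, Gm10499 and H2-T23 held neither form of the NF-kappaB site, nor TTTCACTT, in this window. The RefSeq start of H2-T23 lay 154 bases inside the gene span of the count table, so most of its window lay within that span. For H2-D1 the distance was 364 bases, and its whole window lay within the span. Bases further upstream of these 2 genes were not searched. CCAAT was present in all 9 (29.3% of all promoters) and TATAAA in 4, H2-D1, H2-Q4, Gm11127 and Gm10499 (9.96% of all). These matches describe letters and do not show binding.

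The 9 libraries held 15449026 to 21558128 counts, of which immunoglobulin genes took 27.3% to 55.4%. Levels are given as CPM, counts scaled to a common library total after TMM scaling, which corrects totals for a few very abundant genes. The floor of 3 counts corresponded to 0.127 to 0.205 CPM. Plasma cell markers summed to 34146.6 to 47159.5 CPM in DH-LMP2A, 20401.4 to 32064.3 in kFRA and 18889.9 to 24141.4 in WT libraries, all 8 of them being detected. The largest part was Jchain, with means of 30965.5, 21117.9 and 17825.2 CPM. Of the 8, edgeR called 3 higher and 1 lower in DH-LMP2A than in WT (5.07% and 7.3% of all tested genes). In kFRA against WT it called 2 higher and 1 lower (6.68% and 11.1%). The lower gene was Tnfrsf17 in both. B cell markers summed to 793.5 to 1212.4, 546.8 to 711.8 and 685.9 to 949.6 CPM, and myeloid markers to 799 to 2342.2, 1677.2 to 2461.4 and 3063.8 to 5114 CPM, in DH-LMP2A, kFRA and WT. The B cell markers did not move together: in DH-LMP2A against WT, Ms4a1 and Cr2 were called higher and Cd22 lower. In kFRA against WT 4 of the 8 were called lower (Cd22, Fcer2a, Cr2 and Pax5) and 0 higher. For erythroid markers, 7 of 8 in the table, the sums were 1349.6 to 6852, 601.8 to 1506.5 and 34.1 to 187.1 CPM. Granulocyte markers summed to 21 to 275.4, 6.84 to 25.7 and 271.3 to 858 CPM, and S100a8 and Retnlg of that list were called lower by edgeR in kFRA than in either other genotype. T cell markers summed to at most 100 CPM in any library. The part of these differences in the class I values was not tested. In bulk RNA, fewer cells of a type and less RNA per cell cannot be told apart. The library of kFRA replicate 2 stood apart from the other kFRA libraries, with 29.2% immunoglobulin counts against 44% and 45.4%, and counts of called genes are given without it as well. DH-LMP2A replicate 3 also stood apart within its group: its counts differed from those of replicates 1 and 2 by a chi-square per degree of freedom of 64.1 and 65.1, against 18.3 between these 2. It had 6852 CPM of erythroid markers against 1349.6 and 1399.7, 799 CPM of myeloid markers against 1891.1 and 2342.2, and 21 CPM of granulocyte markers against 218.9 and 275.4. Without it the family sum described below had log2 ratios of 1.23 (DH-LMP2A to WT) and −0.86 (kFRA to DH-LMP2A), against 1.25 and −0.92 with it. The 3 comparisons share libraries pairwise and are not independent of each other.

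In DH-LMP2A libraries H2-K1 and H2-D1 were more than 2 times as abundant as in either other genotype, Gm11127 and Gm10499 were present at a level where kFRA and WT had almost none, and H2-Q7 alone was lower than in every other library. In all, 6 of the 10 members (H2-K1, H2-D1, H2-Q4, H2-T23, Gm11127 and Gm10499) lay higher in all 3 DH-LMP2A libraries than in all 6 others, where 5.61% of the 14199 tested genes did. H2-Q7 was the only member lower in all 3 DH-LMP2A libraries, as were 3.57% of tested genes. For kFRA, H2-Q7 was above all 6 others (5.49% of tested genes) and Gm10499 below them (6.04%). For WT no member was above all 6 others (12.2%), and H2-K1, H2-Q6, H2-T24 and Gm11127 were below (7.27%). Since the members were chosen with these values known, nothing is read from the shares. The median log2 fold change over the 10 members was 0.99 for DH-LMP2A against WT, 0.27 (kFRA against WT) and −0.84 (kFRA against DH-LMP2A), where all tested genes had medians of −0.01, −0.04 and 0.

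**Figure D1:**
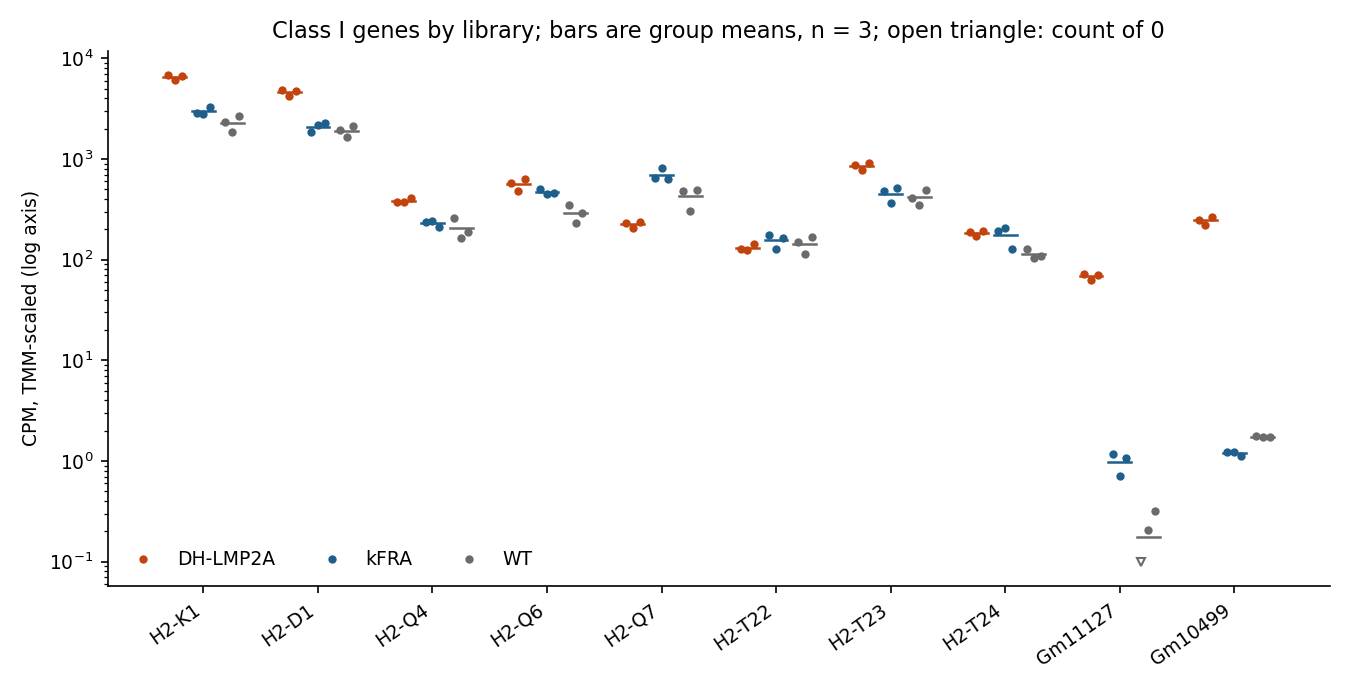
CPM after TMM scaling (log axis) of the 10 class I genes in each of the 9 libraries; points are libraries, short bars are means of 3 mice, and the open triangle is a count of 0. DH-LMP2A libraries stand above the others for 6 genes and below them for H2-Q7, and Gm11127 and Gm10499 lie below 2 CPM outside DH-LMP2A.

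H2-K1, a classical heavy chain gene (chromosome 17, 33996017 to 34000333, minus strand), was the most abundant member in every genotype. Its levels were 6817.3, 6073.1 and 6665.9 CPM in the DH-LMP2A mice, 2846.3, 2777.1 and 3293.9 in the kFRA mice and 2327.2, 1846.9 and 2686.3 in the WT mice. The DH-LMP2A libraries did not overlap with either group, and kFRA lay above WT by a smaller step, 2777.1 against 2686.3 CPM for the closest pair. The means were 6518.8 ± 393.3 (SD, n = 3), 2972.4 ± 280.6 and 2286.8 ± 421.2 CPM. On the log2 scale DH-LMP2A was higher than WT by 1.51 (SE 0.219), and kFRA differed from DH-LMP2A by −1.13 (SE 0.217) and from WT by 0.38 (SE 0.215). H2-D1, the other classical gene (35262730 to 35267499, plus strand), had 4808.9, 4223.8 and 4765 CPM in DH-LMP2A, 1851.4, 2175.4 and 2273.2 in kFRA and 1947.8, 1635.7 and 2111.6 in WT. Here too the DH-LMP2A libraries stood clear of the other 6, while kFRA and WT overlapped. The log2 differences of H2-D1 were 1.28 (SE 0.199) between DH-LMP2A and WT, −1.13 (SE 0.198) for kFRA relative to DH-LMP2A and 0.15 (SE 0.196) for kFRA relative to WT. Scaling by library size alone gave 1.86 for H2-K1 and 1.62 for H2-D1 in DH-LMP2A against WT, where the median of all tested genes was 0.334 in place of −0.008.

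The 3 members of the Q region did not move together. H2-Q4 (35379617 to 35385290, plus strand) had 373, 376.8 and 407.4 CPM in DH-LMP2A, 234.1, 241.7 and 211.1 in kFRA and 259.6, 163.1 and 189.9 in WT, so that DH-LMP2A was above all other libraries and kFRA overlapped with WT. H2-Q6 (35424850 to 35430055, plus strand) had 577, 479.3 and 626.1 CPM in DH-LMP2A, 498.1, 446.8 and 458.7 in kFRA and 345.1, 230.1 and 293.9 in WT. For H2-Q6 it was the WT libraries that stood apart, below all others, and DH-LMP2A overlapped with kFRA. Its log2 differences were 0.95 (SE 0.185) for DH-LMP2A and 0.69 (SE 0.184) for kFRA against WT. H2-Q7 (35439155 to 35443773, plus strand) encodes the non-classical antigen Qa-2, which is anchored in the membrane by a lipid. Its levels ran the other way: 233.2, 208.3 and 237 CPM in DH-LMP2A, 644.5, 820.4 and 635.7 in kFRA and 475.6, 307.7 and 495.6 in WT. None of the 3 groups overlapped, with DH-LMP2A lowest and kFRA highest. The log2 differences of H2-Q7 were 1.63 (SE 0.211) for kFRA relative to DH-LMP2A, 0.72 (SE 0.207) for kFRA relative to WT and −0.91 (SE 0.207) for DH-LMP2A relative to WT, the last being −0.57 when scaled by library size alone.

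In the T region H2-T23, which encodes Qa-1, the molecule that presents leader peptides of other class I chains to inhibitory receptors, behaved like the classical genes. H2-T23 (36029773 to 36032855, minus strand) had 871.6, 781.7 and 912.3 CPM in DH-LMP2A, 481.4, 367.3 and 509.3 in kFRA and 411.2, 351.2 and 495.4 in WT. DH-LMP2A was above all others, by a log2 difference of 1.03 (SE 0.191) from WT, and kFRA overlapped with WT. H2-T22, a ligand of some gamma-delta T cell receptors (36037128 to 36042747, minus strand), had 127.5, 125 and 142.7 CPM in DH-LMP2A, 177.4, 126.8 and 164.3 in kFRA and 148.5, 113.7 and 167.9 in WT. All 3 groups of H2-T22 overlapped, and its difference between DH-LMP2A and WT was −0.12 (SE 0.18) after TMM scaling but 0.23 when scaled by library size alone. H2-T24 (36005695 to 36020560, minus strand) had 186.6, 169.9 and 191.7 CPM in DH-LMP2A, 192.9, 205.5 and 127.5 in kFRA and 127.1, 102.9 and 108.5 in WT. The WT libraries lay below all others, the closest pair being WT replicate 1 and kFRA replicate 3 at 127.1 and 127.5 CPM.

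The sharpest contrasts were in the predicted genes. Gm11127 (36055816 to 36058371, minus strand), annotated as protein coding, had 1713, 1362 and 1534 counts in DH-LMP2A, 17, 15 and 17 in kFRA and 0, 4 and 5 in WT. In CPM its mean was 68.6 ± 4.84 (SD, n = 3) in DH-LMP2A and 0.981 ± 0.236 in kFRA, a ratio of 70. The WT libraries were at or near the floor of 3 counts, and no ratio to them is given. Gm10499 (36141758 to 36145923, minus strand), annotated as a transcribed unprocessed pseudogene, had 5913, 4773 and 5796 counts in DH-LMP2A, 18, 26 and 18 in kFRA and 35, 34 and 27 in WT. Its mean of 245.6 ± 22.3 CPM in DH-LMP2A compared with 1.2 ± 0.0607 in kFRA and 1.74 ± 0.0274 in WT, ratios of 204.8 and 141. The low counts outside DH-LMP2A were above the floor in each of the 6 libraries for Gm10499, and in all 3 kFRA libraries for Gm11127. Gm10499 shared 5.35% of its read-length windows with other genes, against 53% for Gm11127.

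Levels of different genes can be ranked only per length, as CPM per kilobase of merged exons. In DH-LMP2A the order was H2-K1 at 2499.5 ± 150.8 (SD, n = 3) and H2-D1 at 1783.3 ± 126.4, then H2-T23 at 296 ± 23.1, H2-Q6 at 269 ± 35.9, H2-Q4 at 148.6 ± 7.26 and Gm10499 at 139.4 ± 12.6. H2-T24 followed at 83.7 ± 5.23, then H2-Q7 at 53 ± 3.65, Gm11127 at 51.1 ± 3.6 and H2-T22 at 38.6 ± 2.8 CPM per kilobase. The neighbours H2-T23 and H2-Q6, H2-Q4 and Gm10499, and H2-Q7 and Gm11127 differed by no more than their SDs. In kFRA H2-Q7, at 164.2 ± 24.4, ranked after H2-Q6 at 224.4 ± 12.9 and was level within the SDs with H2-T23 at 156.7 ± 26. In WT H2-Q7, at 99.9 ± 24.2, came after H2-T23 at 145.1 ± 25.1 and H2-Q6 at 138.9 ± 27.6. In kFRA and WT the 2 predicted genes closed the order at under 1 CPM per kilobase.

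The family sum was made up mostly of its 2 largest members. Added over the 10 genes, DH-LMP2A libraries had 14317.9, 12722.5 and 14283.4 CPM, kFRA libraries 6928.5, 7162.8 and 7675.9 and WT libraries 6043.8, 4753.1 and 6551.2. None of the groups overlapped. The means were 13774.6 ± 911.3 (SD, n = 3), 7255.8 ± 382.3 and 5782.7 ± 927.1 CPM, so the DH-LMP2A sum was 2.38 times that of WT and the kFRA sum 1.25 times that of WT. As log2 ratios of means these are 1.25 (DH-LMP2A to WT), −0.92 (kFRA to DH-LMP2A) and 0.33 (kFRA to WT). Together the 10 genes held 1.54% of all counts in DH-LMP2A, 0.739% in kFRA and 0.509% in WT. Of the counts outside immunoglobulin genes the shares were 2.17%, 1.22% and 1.01%, and their ratio between DH-LMP2A and WT was 2.16 in place of 3.03. Without H2-K1 and H2-D1 the sum of the other 8 was 2656.6 ± 215.7, 2183.3 ± 65.3 and 1597.6 ± 283.3 CPM, a ratio of 1.66 between DH-LMP2A and WT.

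**Figure D2:**
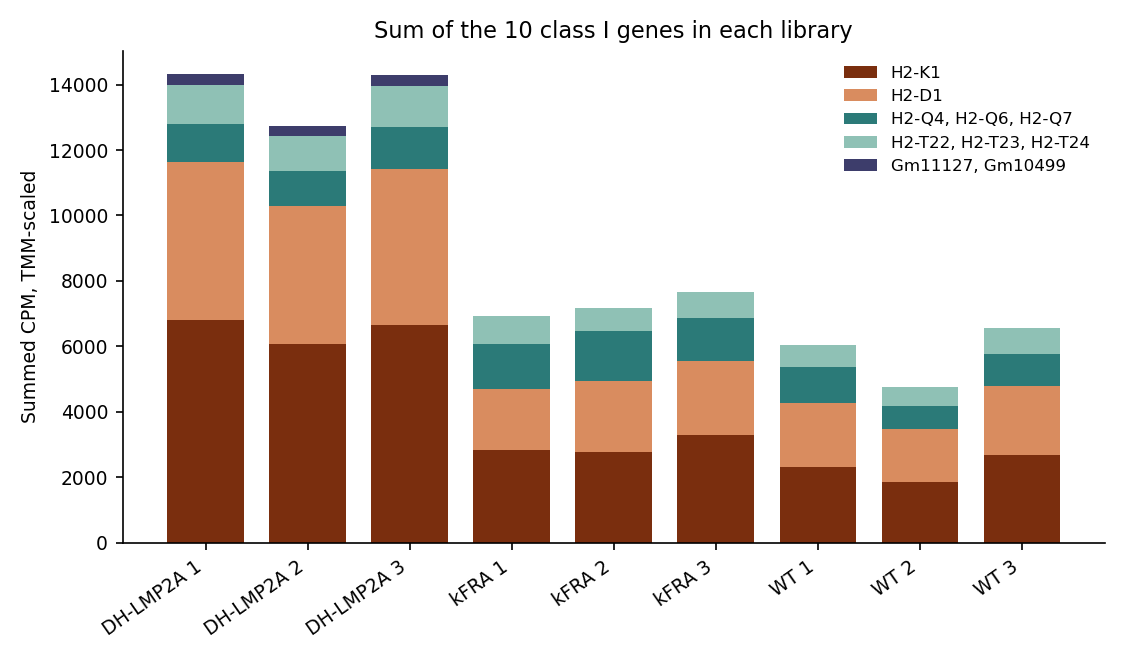
Summed CPM after TMM scaling of the 10 class I genes in each library, stacked by H2-K1, H2-D1, the Q members, the T members and the 2 predicted genes. The 3 DH-LMP2A sums lie between 12722.5 and 14317.9 CPM, above all others, and the predicted genes are visible only there.

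Ratios of counts within a library do not depend on how libraries are scaled. By these ratios the counts assigned to the family differed in make-up as well as in sum. The part of shared sequence and of haplotype in these ratios was not tested. H2-K1 and H2-D1 made up 80.7% ± 0.615 (SD, n = 3) of the sum in DH-LMP2A, 69.8% ± 2.43 in kFRA and 72.4% ± 1.45 in WT. H2-Q7 made up 1.64% ± 0.0157 in DH-LMP2A, 9.68% ± 1.62 in kFRA and 7.3% ± 0.734 in WT. The counts of H2-Q7 divided by those of its closest relative H2-Q6 were 0.404, 0.435 and 0.379 in DH-LMP2A, 1.29, 1.84 and 1.39 in kFRA and 1.38, 1.34 and 1.69 in WT. DH-LMP2A stood well below both other genotypes, which overlapped. The ratio of H2-T23 to H2-T22 was 6.49 ± 0.306 in DH-LMP2A, 2.9 ± 0.193 in kFRA and 2.94 ± 0.161 in WT, with the same separation. Gm10499 counts were 0.0377 ± 0.00186 of those of H2-K1 in DH-LMP2A, 0.000407 ± 5.59e-05 in kFRA and 0.00078 ± 0.00015 in WT. The ratio of the classical genes H2-K1 and H2-D1 moved little by comparison, at 1.42 ± 0.0195, 1.42 ± 0.133 and 1.2 ± 0.0716, with WT below both others (at most 1.27, against at least 1.28 in kFRA). Against the shared light chain gene B2m, the family sum had a count ratio of 4.41 ± 0.0667 in DH-LMP2A, 3.22 ± 0.409 in kFRA and 2.78 ± 0.226 in WT.

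**Figure D3:**
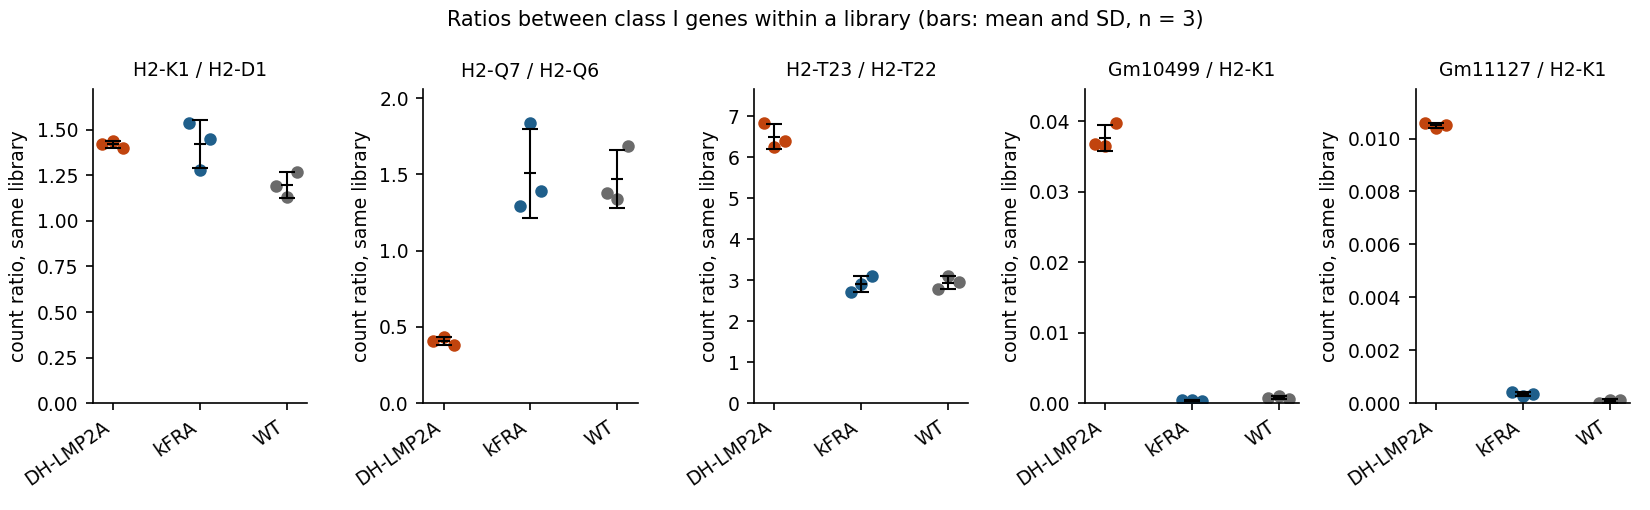
Ratios of the counts of 2 class I genes in the same library, by genotype; coloured points are libraries and black marks are means with SD over 3 mice. H2-Q7 to H2-Q6 is at most 0.435 in DH-LMP2A and at least 1.29 elsewhere, whereas H2-K1 to H2-D1 stays between 1.13 and 1.54 in all 9 libraries.

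The other class I genes of the region were not members and were tested with edgeR's quasi-likelihood test over all 14199 genes (Benjamini-Hochberg adjusted p under 0.05), which called 12.4% of all genes in DH-LMP2A against WT, 5.02% in kFRA against DH-LMP2A and 17.8% in kFRA against WT. Of the 30 names listed, 24 were in the table, 7 of these were at 0 in every library (H2-M1, H2-M9, H2-M10.3, H2-M10.4, H2-M10.5, H2-M10.6 and H2-M11) and 14 passed the filter on low counts. H2-Q8 and H2-Q9 were among the names not in the table. Against WT, 7 of the 14 were higher in DH-LMP2A (H2-K2, H2-Q1, H2-Q2, H2-Q5, H2-Bl, Gm8909 and Gm7030) and 2 lower (H2-M2 and H2-M10.1), where 5.07% and 7.3% of all tested genes were called in those directions. The median log2 fold change of the 14 was 1.59, against −0.01 for all tested genes. The gene lists used here and below were chosen with earlier results of these data known, so nothing is read from the shares. In kFRA against DH-LMP2A 8 were lower and 1, H2-T10, higher, with backgrounds of 3.3% and 1.73% and a median of −1. In kFRA against WT 3 were higher (H2-T3, H2-T10 and H2-Bl) and 3 lower (H2-Q10, H2-M2 and H2-M10.1), with backgrounds of 6.68% and 11.1% and a median of 0.22. Without kFRA replicate 2 the counts were 2 higher and 6 lower against DH-LMP2A, and 4 higher and 3 lower against WT, where that fit called 11.7% of all tested genes higher and 11% lower against DH-LMP2A and 18.8% and 20% against WT. Without DH-LMP2A replicate 3 they were 7 higher and 1 lower in DH-LMP2A against WT, and 1 higher and 6 lower in kFRA against DH-LMP2A. The call of H2-M2 was lost without kFRA replicate 1 or 3 (adjusted p = 0.0519 in each) and without any of the DH-LMP2A libraries (0.0527 to 0.0557). In kFRA against DH-LMP2A, H2-M3 lost its call without any 1 of the 6 libraries (adjusted p 0.0567 to 0.213), and Gm7030 without any but kFRA replicate 3 (0.052 to 0.178). H2-M10.1 had 26, 22 and 65 counts in WT and at most 3 elsewhere, and H2-M2 84, 29 and 11 against at most 8. H2-T3 had 20, 11 and 14 in kFRA and at most 4 elsewhere. Genes this low can pass the filter through the group where they are high, so nothing is read from their calls.

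In 9 of these 14 genes DH-LMP2A stood above all 6 other libraries, as in 5.61% of all tested genes. In 5 of the 9 the calls held against both genotypes. Read-length windows of members were also found in some of these genes: 110 windows of H2-D1 in H2-Q1, 60 of H2-D1 in Gm8909, 249 of H2-Q7 in H2-Q5 and 54 of H2-T22 in H2-K2. Their counts are uncertain in that respect. H2-Q1, a Q gene, had 173.6, 167 and 170.8 CPM in DH-LMP2A, 15.2, 16.1 and 13.4 in kFRA and 11.6, 11.1 and 14.9 in WT. Its log2 fold change was 3.77 (SE 0.153, adjusted p = 1.1e-06) for DH-LMP2A against WT and −3.52 (SE 0.151, adjusted p = 7.61e-07) for kFRA against DH-LMP2A. Gm8909, a predicted class I gene, had 50.8, 49.6 and 57.1 CPM in DH-LMP2A, 2.53, 2 and 3.58 in kFRA and 2.18, 1.17 and 2.1 in WT, a difference of 4.85 (SE 0.278) from WT in DH-LMP2A with the same test. H2-Q5 had a mean of 346.4 ± 50.4 CPM in DH-LMP2A, 86.9 ± 11.7 in kFRA and 76.1 ± 15.3 in WT, and H2-K2, next to H2-K1, had 43.6 ± 3.36, 16.8 ± 5.5 and 16.7 ± 2.48 (SD, n = 3 each). H2-Q2 had 40.8 ± 5.62, 4.69 ± 1.79 and 4.65 ± 2.5 CPM. Both calls of each of the 5 genes held in all 6 fits that left out 1 library.

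A few class I genes separated the genotypes in another order. H2-T10, in which 581 read-length windows of H2-T22 were found, had 110.3, 80.3 and 109 CPM in kFRA, above 39.1, 38.6 and 43.8 in DH-LMP2A and 43.6, 29.1 and 40.9 in WT. It exceeded DH-LMP2A in kFRA by 1.3 (log2, SE 0.185, adjusted p = 0.00314) and WT by 1.4 (SE 0.185, adjusted p = 0.00113). H2-Q10, known as a secreted class I molecule of the liver, was lowest in kFRA, at 8.25 ± 3.53 CPM against 55.4 ± 4.48 in DH-LMP2A and 27.3 ± 9.97 in WT. Its log2 differences were −2.74 (SE 0.331, adjusted p = 0.0011) from DH-LMP2A and −1.72 (SE 0.323, adjusted p = 0.0071) from WT. Of the read-length windows of H2-Q7, 8.88% were also found in H2-Q10, as were 2.38% of those of H2-K1. Counts of H2-Q10 are uncertain in that respect. H2-Bl was low in WT, at 0.101, 0.153 and 0.191 CPM, and had 2.12 ± 0.121 in kFRA and 3.91 ± 0.661 in DH-LMP2A. H2-T3, which encodes the thymus leukaemia antigen, was at 0 counts in all 3 WT libraries and at 1.37, 0.523 and 0.878 CPM in kFRA, at least 4.83-fold higher when WT is set at the floor of 3 counts per library.

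**Figure D4:**
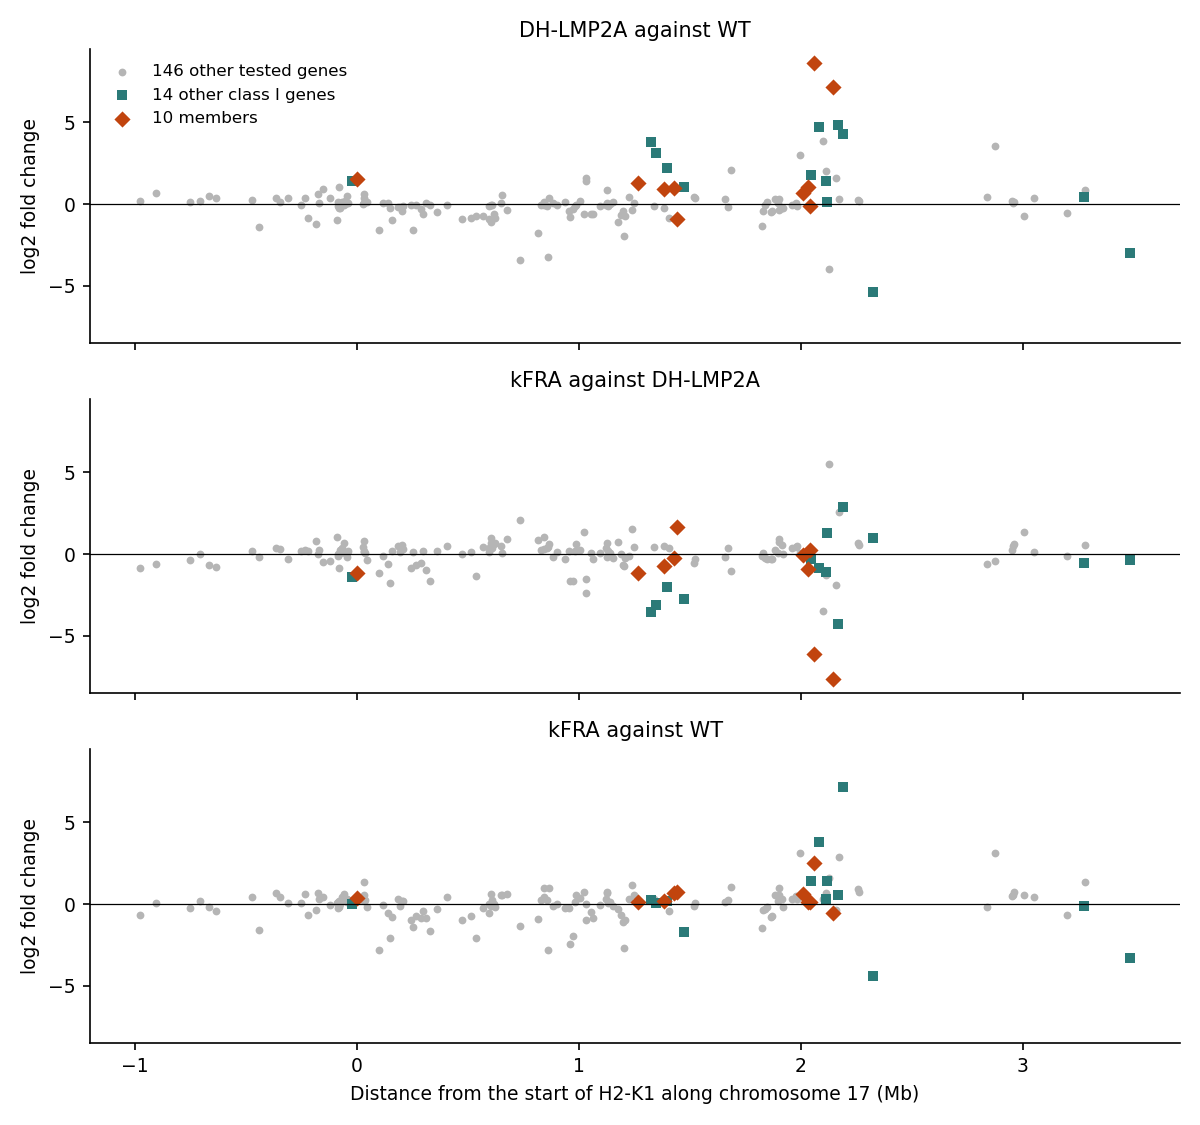
Log2 fold changes of the 10 members, 14 other class I genes and 146 other tested genes of the region against their distance along chromosome 17 from the start of H2-K1 (Mb), for the 3 comparisons. Large changes in both directions are interleaved with genes near 0, and neighbouring class I genes such as H2-Q6 and H2-Q7 differ in sign in DH-LMP2A against WT. The fitted value of H2-T3 against WT, where its counts are all 0, depends on the prior count and is no bound.

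Between 33 and 38 Mb of chromosome 17, 146 genes outside the class I lists were tested, among them the loading gene Tapbp described below. Of these 8 were higher and 10 lower in DH-LMP2A than in WT, where 5.07% and 7.3% of all tested genes were called, and their median log2 fold change was −0.06. In kFRA against DH-LMP2A 5 were higher and 8 lower (backgrounds 1.73% and 3.3%, median 0.14), and in kFRA against WT 17 were higher and 11 lower (backgrounds 6.68% and 11.1%, median 0.1). The kFRA counts moved with kFRA replicate 2, as did the calls over all genes. Without it 32 were higher and 13 lower than in DH-LMP2A, where 11.7% and 11% of all tested genes were called, and 42 were higher and 16 lower than in WT, where 18.8% and 20% were. Leaving out other single libraries gave 1 to 4 higher and 4 to 5 lower genes for kFRA relative to DH-LMP2A, 6 to 10 higher and 6 to 14 lower for kFRA relative to WT, and 5 to 7 higher and 5 to 10 lower for DH-LMP2A relative to WT. Gm8815, a predicted gene among the T genes, shares read-length windows with Gm10499, so its counts are uncertain in the same way. It was at 4.95 CPM in DH-LMP2A, 0.432 in kFRA and 0.339 in WT, a log2 fold change of 3.83 (SE 0.387, adjusted p = 0.000279) for DH-LMP2A against WT. A930015D03Rik, whose exons overlap those of H2-T22 on the opposite strand, was low in WT at 0.352 CPM, against 2.95 in DH-LMP2A and 3.12 in kFRA, with log2 differences of 3.02 (SE 0.331) and 3.1 (SE 0.333). Gm19684 went the other way, with a log2 fold change of −3.97 (SE 0.621, adjusted p = 0.00347) in DH-LMP2A against WT and means of 0.0448 and 0.791 CPM. Its DH-LMP2A mean lay below the floor of 3 counts, so the size of that change is uncertain. In kFRA against DH-LMP2A its log2 fold change was 5.53, with the same limit. Exons of Gm19684 overlap those of the class I gene Gm7030 on the opposite strand. In class II, H2-Eb2 had 9.37 ± 2.2 CPM in kFRA, below 28.9 ± 2.75 in DH-LMP2A and 29.6 ± 5.39 in WT, by −1.62 (SE 0.204) and −1.65 (SE 0.204). The part of the B cell marker sums, 546.8 to 711.8 CPM in kFRA, was not tested.

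Of 6 class I-like genes tested on other chromosomes, 1 was higher and 1 lower in DH-LMP2A than in WT, where 5.07% and 7.3% of all tested genes were. Cd1d2, a lipid-presenting relative, was higher in DH-LMP2A than in WT, at 8.58 ± 2.35 against 2.77 ± 0.761 CPM (log2 fold change 1.63, SE 0.277, adjusted p = 0.00541 with edgeR), and Hfe, the iron regulator, was lower. Hfe lost its call without DH-LMP2A replicate 1, WT replicate 1 or WT replicate 2 (adjusted p 0.0583 to 0.0968), and Cd1d2 kept it in all 6 fits without 1 library. Cd1d2 was also lower in kFRA than in DH-LMP2A (log2 fold change −1.17, SE 0.273, adjusted p = 0.0415 with edgeR), the only call of this list there, where 3.3% of all tested genes were lower. That call was lost without any of the DH-LMP2A libraries or without kFRA replicate 1 or 3 (adjusted p 0.0655 to 0.157). In kFRA against WT edgeR called 0 of the 6, with 1 lower at an unadjusted p under 0.05 and 1 lower by DESeq2.

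As background, haplotype b mice make almost no mRNA of the class II gene H2-Ea because its promoter is deleted, and the reference copy is annotated as H2-Ea-ps, whereas haplotype d mice express it. H2-Ea-ps had 4, 2 and 0 counts in DH-LMP2A, 5, 1 and 9 in kFRA and 0, 4 and 0 in WT. In the same libraries its partner gene H2-Eb1 was between 255.9 and 635.2 CPM. No genotype stood apart at H2-Ea-ps, and it did not pass the filter on low counts.

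Of 9 genes for the light chain and for peptide loading, 4 were higher in DH-LMP2A than in WT (Tapbp, Tapbpl, Erap1 and Pdia3) and none lower, with a median of 0.61 (5.07% of all tested genes were higher). In kFRA against DH-LMP2A, Tapbp and Erap1 were lower and none higher (median −0.26, background 3.3%), and in kFRA against WT Pdia3 was higher (median 0.16, background 6.68%). Tapbp encodes tapasin, which holds class I chains to the peptide transporter. It had 575.9, 474.8 and 541.6 CPM in DH-LMP2A, 276.7, 272.3 and 321.8 in kFRA and 264.7, 244.1 and 270.1 in WT, with DH-LMP2A above all others. Its log2 fold change was 1.03 (SE 0.144, adjusted p = 0.00205) against WT, called in all 6 fits that left out a library. For Tapbp in kFRA against DH-LMP2A it was −0.87 (SE 0.143, adjusted p = 0.00785), with adjusted p = 0.0766 without DH-LMP2A replicate 1 and 0.0577 without kFRA replicate 1.

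The calls of the other loading genes were each lost in several of the 6 fits that left out 1 library. Over these fits the log2 fold changes in DH-LMP2A against WT stayed at 0.62 to 0.91 for Tapbpl, 0.68 to 0.92 for Erap1 and 0.57 to 0.78 for Pdia3. The DESeq2 Wald test called 7 of the 9 genes higher in DH-LMP2A than in WT, against 4 with edgeR. It called 2 lower in kFRA than in DH-LMP2A and 2 higher in kFRA than in WT. In DH-LMP2A against WT, Tapbpl lost its call without DH-LMP2A replicate 1 or 3 or WT replicate 1 or 2 (adjusted p 0.113 to 0.138), and Erap1, the peptide trimming enzyme, without DH-LMP2A replicate 1 or any WT library (0.0668 to 0.0846). Pdia3, a chaperone of folding glycoproteins, lost it without any DH-LMP2A library or WT replicate 1 or 2 (0.0654 to 0.165). In kFRA against DH-LMP2A Erap1 lost its call without DH-LMP2A replicate 1 or kFRA replicate 1 or 3 (0.0679 to 0.116), and in kFRA against WT Pdia3 without kFRA replicate 1 or 3 or WT replicate 1 or 2 (0.0856 to 0.127). B2m, the light chain shared by all members, had 3302.3, 2869.5 and 3200.3 CPM in DH-LMP2A, 2437.1, 2271.2 and 2101.1 in kFRA and 2351.2, 1720.9 and 2168.7 in WT. DH-LMP2A lay above the other libraries, by 0.59 (SE 0.195) from WT, but B2m did not pass the test (adjusted p = 0.0851 with edgeR). It passed with the DESeq2 Wald test (0.6, adjusted p = 0.00193) and with library size alone (0.93, adjusted p = 0.0181). Tap1 and Tap2, the peptide transporter subunits, had means of 179.9 and 146.7 CPM in DH-LMP2A, 193.1 and 178.7 in kFRA and 207.4 and 157.3 in WT, and neither was called in any comparison.

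None of the 6 immunoproteasome genes was called in any comparison by edgeR, although at an unadjusted p under 0.05 there were 3 higher in kFRA than DH-LMP2A and 2 lower in DH-LMP2A than WT. The DESeq2 Wald test called 1 in each of those directions. The list had medians of −0.28 for DH-LMP2A to WT, 0.41 for kFRA to DH-LMP2A and 0.11 for kFRA to WT. In the comparisons with kFRA the counts moved with kFRA replicate 2: without it all 6 were higher in kFRA than in DH-LMP2A and 2 were higher than in WT, where 11.7% and 18.8% of all tested genes were higher. For DH-LMP2A relative to WT the edgeR count was still 0 with any single library left out. Psmb8, a catalytic subunit, had 289.6, 174 and 274.9 CPM in kFRA and 169.2, 154.8 and 172.4 in DH-LMP2A. Of 8 factors that drive class I transcription, Nlrc5 and Irf9 were lower in DH-LMP2A than in WT and lower in kFRA than in WT, and 0 were higher in either by edgeR, at an unadjusted p under 0.05 or by DESeq2. Over all tested genes 7.3% and 11.1% were lower in these 2 comparisons. DESeq2 called 3 and 2 of the 8 lower, and 4 and 2 were lower at an unadjusted p under 0.05 with edgeR. Between kFRA and DH-LMP2A edgeR called 0, with 1 higher and 1 lower at an unadjusted p under 0.05 and 0 by DESeq2. Nlrc5, the class I transactivator, had 61.1, 75.6 and 51.5 CPM in DH-LMP2A, 61.5, 89.2 and 60.7 in kFRA and 169.4, 96.6 and 113.1 in WT. Its log2 fold change was −1.01 (SE 0.248, adjusted p = 0.0283) in DH-LMP2A and −0.84 (SE 0.248, adjusted p = 0.0448) in kFRA against WT. The calls of Nlrc5 were lost with library size alone (adjusted p = 0.187 and 0.243) and without DH-LMP2A replicate 1 or 3, kFRA replicate 1 or 3, WT replicate 1 and, for kFRA, WT replicate 3. Irf9, an interferon signalling factor, also lost both calls with library size alone (adjusted p = 0.236 and 0.217). Of this list, the count for kFRA against WT was 0 without kFRA replicate 1 and 1 without kFRA replicate 3 or WT replicate 1 or 3. In the comparison of DH-LMP2A with WT it was 1 without DH-LMP2A replicate 1 or 3 or WT replicate 1. Without kFRA replicate 2, 1 passed the test, being higher in kFRA than DH-LMP2A.

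Of 8 interferon-stimulated genes, 4 were lower in DH-LMP2A than in WT (Isg15, Ifit1, Ifit3 and Bst2) and 4 lower in kFRA than in WT (Isg15, Ifit1, Ifit3 and Irf7), with medians of −1.89 and −1.72, and none was higher. Over all tested genes 7.3% and 11.1% were lower in these 2 comparisons. The DESeq2 Wald test called 8 and 6 of the list lower, and 8 and 7 were lower at an unadjusted p under 0.05 with edgeR. Isg15, a ubiquitin-like interferon product, had means of 6.02 ± 2.37, 7.46 ± 1.81 and 21.4 ± 9.08 CPM (SD, n = 3) in DH-LMP2A, kFRA and WT. Between kFRA and DH-LMP2A edgeR called 0 of the list, with 1 higher in kFRA at an unadjusted p under 0.05, by DESeq2 and, with edgeR, without kFRA replicate 2. The count for kFRA against WT was 0 without kFRA replicate 1 or 3, 1 without WT replicate 1 and 5 without kFRA replicate 2, and that for DH-LMP2A against WT was 2 without DH-LMP2A replicate 1 or 3 or WT replicate 1. The 3 WT libraries had summed levels of 204.9 to 582 CPM for this list, against 82 to 153.8 in the other 6, and also the highest myeloid marker sums, 3063.8 to 5114 CPM. The part of myeloid cells was not tested.

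**Figure D5:**
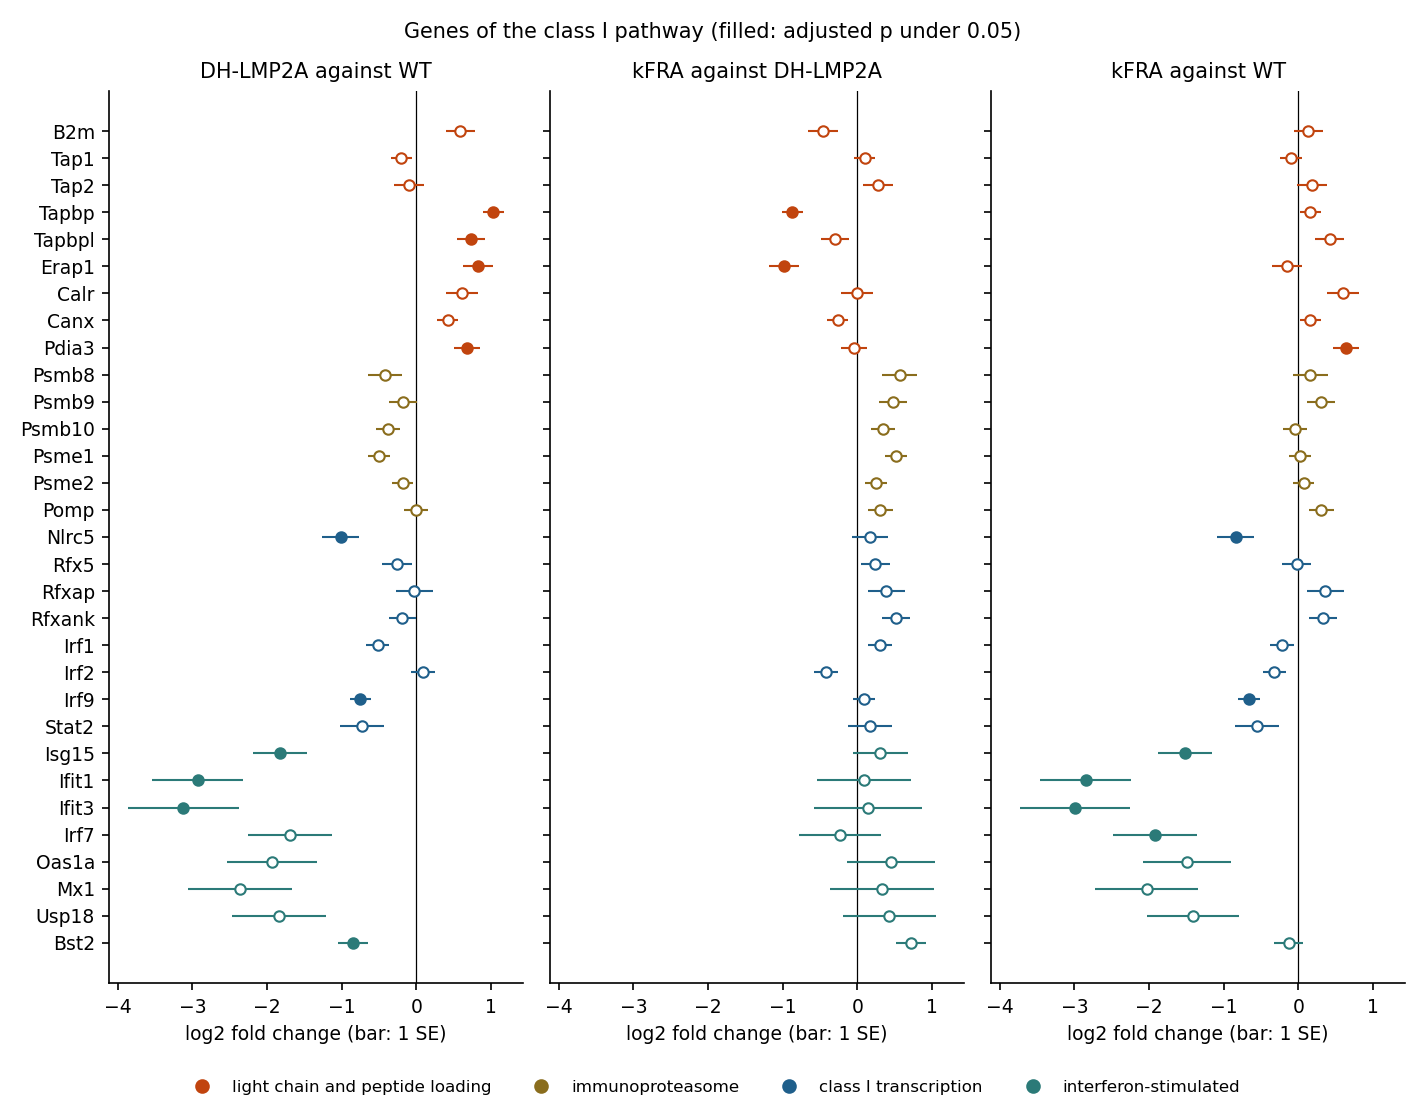
Log2 fold changes with SE of the genes for peptide loading, the immunoproteasome, class I transcription and interferon response in the 3 comparisons; filled points have an adjusted p under 0.05 in the fit of all 9 libraries. Tapbp is the filled point at 1.03 in DH-LMP2A against WT, and the interferon-stimulated genes lie below 0 in both comparisons with WT.

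The genes whose levels followed each member most closely were ranked by Pearson's r of log2 CPM over the 9 libraries, among 9844 tested genes with a mean of at least 5 CPM. These r values share 3 groups of 3 libraries and are a description. The closest to H2-K1 was Ctsz, a lysosomal protease gene on chromosome 2, at 0.986, and the closest to H2-D1 was Rpl30-ps9, a pseudogene on chromosome X, at 0.99, with means of 26.7, 0.344 and 0.186 CPM in DH-LMP2A, kFRA and WT. Tapbp (r = 0.983 and 0.987) and Gm8909 (0.982 and 0.987) came next for both. The closest to H2-T23 was Gm15772, a predicted gene on chromosome 5, at 0.974. B2m was among the closest to H2-Q4, at 0.962. The closest to H2-Q7 was Ache, the acetylcholinesterase gene, at 0.94, and the closest to Gm10499 were Gm5559 at 0.994, Zfp868 at 0.993 and H2-Q1 at 0.99. Of the 26 distinct genes named by this ranking, 3 lay between 33 and 38 Mb of chromosome 17 (Tapbp, Gm8909 and H2-Q1), where 1.2% of the ranked genes lie. Among the members themselves r was 0.98 between H2-K1 and H2-D1 and −0.66 between H2-K1 and H2-Q7.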

How the data were processed

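The authors deposited raw read counts per gene, not normalized, with merged exon coordinates and lengths, per the file headers; all 9 count columns were used. Per the submitters' processing notes STAR 2.4.0a, featureCounts of Subread 1.5.0-p3 and DESeq2 were used with mm10 and GRCm38; their settings for strand and for reads that map to several places are not given in the sources used here. Libraries were polyadenylated, stranded and read as paired ends of 75 bases, per the labels' protocols. Coordinates come from the table and are taken as GRCm38.

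Replicate libraries differed by more than sampling noise (chi-square per degree of freedom 18.3 to 174). Counts were filtered with filterByExpr by genotype (14199 genes kept), scaled by TMM and fitted with edgeR 4.0.16 under R 4.3.3, with 1 coefficient per genotype over all 9 libraries; each contrast had a 2-sided quasi-likelihood F test, with Benjamini-Hochberg adjustment and a threshold of 0.05. The fit was tested on simulated counts. Members' fold changes come from that fit and carry no p-value. The members and gene lists were chosen with earlier results of these data known. The genes named are the 10 members, listed genes past the threshold, a few pathway genes whatever their values (B2m, Tap1, Tap2, Tapbp, Nlrc5, H2-M3, H2-Ea-ps, H2-Eb1), neighbours on chromosome 17 among those with the highest and lowest changes, and the 3 genes most alike each member (log2 CPM, prior count 2); Psmb8 and the counts without single libraries were added after seeing the data. A gene of the transcription factor list is not reported here. Shared windows were searched on the transcript strand of GENCODE M21. Alternatives were DESeq2 1.42.0 (size factors, Wald test), library size alone, no immunoglobulin genes, no filter, a replicate block, only the 6 libraries compared, and leaving out each replicate. Floors cover counting error only. SEs come from the quasi-likelihood fit and include the spread between mice, and SDs are taken over 3 mice.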

Additional observations from a re-analysis of the deposited data

How the results depend on the processing

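The family sum kept its order in every alternative run: leaving out single libraries gave log2 ratios of 1.13 to 1.35 for DH-LMP2A against WT, −0.97 to −0.84 for kFRA against DH-LMP2A and 0.2 to 0.43 for kFRA against WT. Library size alone gave 1.6, −1.06 and 0.54, and put the median of all tested genes at 0.334, −0.136 and 0.174 in place of −0.008, −0.005 and −0.038, a move of 0.342, −0.131 and 0.212. It also moved the share of calls that were higher from 41% to 79.9% for DH-LMP2A against WT and from 37.6% to 72% for kFRA against WT. The number of genes called, which sets the background shares, was 713 for kFRA against DH-LMP2A and 1405 with the DESeq2 Wald test. Leaving out single libraries gave 352 to 3299 for kFRA against DH-LMP2A, 1271 to 5632 for kFRA against WT (2523 with all libraries) and 932 to 1408 for DH-LMP2A against WT (1756). The highest values, 3299 and 5632, came without kFRA replicate 2 and included 697 of the 713 and 2427 of the 2523 genes; the cause was not tested. When a group is left with 2 libraries, these are assumed to vary like the others.

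With the replicate number as a block 685, 2930 and 2067 genes were called for kFRA against DH-LMP2A, kFRA against WT and DH-LMP2A against WT. The numbers name different mice, same-numbered libraries deviated together with correlations of −0.21 to 0.2, and only kFRA replicate 3 correlated best with its own number, so the block is not read as a pairing. Levels of Gm11127 in WT are limited by depth, at 0 to 5 counts per library.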
